A study of Homo sapiens with 4 samples.

Results

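9 genes of the tight junction, CLDN1, CLDN3, CLDN4, CLDN7, CLDN12, CLDN18, OCLN, TJP1 and TJP3, were followed in 2 established cell lines of human pancreatic cancer, SW1990 and PANC-1. They were taken by gene name from a table of 59263 rows, of which 58174 carried an Ensembl gene identifier, and all 9 were found. SW1990 cells derive from a metastasis of a pancreatic ductal adenocarcinoma and PANC-1 cells from a carcinoma of the pancreatic duct. RNA of each line was sequenced once from unirradiated cells and once from cells given 10 Gy of X-ray radiation, which makes 4 libraries of 1 per condition, all from passages 14 to 16. Each line was grown in a medium of its own with serum, so line and medium cannot be told apart, and the time between radiation and RNA collection is not given in the sources used here. For SW1990, the reads counted on genes numbered 17851815 without and 18305682 with radiation, and for PANC-1 23323266 and 20026595. At these depths a count of 3, the floor used here for a gene at 0, was worth 0.129 to 0.168 CPM, counts relative to the total of each library. No radiation effect within a line has a replicate check, and the intervals of such effects cover counting error only.

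Tight junctions seal the space between neighbouring epithelial cells near their apical border and set how ions and water pass between them. The strands of the seal are built from claudins, membrane proteins with 4 passes whose mixture sets which ions pass, together with occludin. On the inside of the membrane, the zonula occludens proteins bind the tails of the claudins and tie the strands to actin. Ductal epithelium of the pancreas and carcinomas derived from it are known for several claudins, and loss of claudins and occludin is a usual feature of carcinoma cells that have taken on a mesenchymal form.

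The claudin members lie on chromosomes 3, 7 and 17, and the other members on chromosomes 5, 15 and 19 of GRCh38. CLDN1 (chr3:190305701-190322475, minus strand) encodes a sealing claudin of skin and gut, and CLDN18 (chr3:137998735-138033655, plus strand) the claudin of lung and stomach. CLDN3 (chr7:73768997-73770270, minus strand) and CLDN4 (chr7:73799542-73832693, plus strand), neighbours on chromosome 7, encode the receptors of a clostridial enterotoxin. CLDN7 (chr17:7259903-7263983, minus strand) encodes a claudin that is also found along the lateral membrane, bound to EPCAM. CLDN12 (chr7:90383721-90513402, plus strand) encodes a claudin that lacks the usual tail for binding the zonula occludens proteins. OCLN (chr5:69492292-69558104, plus strand) encodes occludin. TJP1 (chr15:29699367-29968865, minus strand) and TJP3 (chr19:3708109-3750813, plus strand) encode the scaffold proteins ZO-1 and ZO-3. All 9 are protein-coding in GENCODE release 29 with the coordinates of the deposited table. The annotated transcripts number 1 for CLDN3, 15 for CLDN12 and 12 for TJP1.

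Start-site sequence of the members is shown because repressors of the SNAI and ZEB families, which silence junction genes in other epithelia, bind the E-box CAGGTG. RefSeq windows of 300 bases (GRCh38.p14, 250 bases before to 50 after a start site) were found for all 9 members, 16 windows in all. CAGGTG on either strand was present in 7 of these windows, belonging to 6 members, and in 20.6% of all 35116 RefSeq windows of the same length. CLDN1, CLDN4 and CLDN12 had no match. The downstream start site of CLDN7 had 5 matches, a number reached by 33 windows, or 0.094% of all. The match of TJP3 also belonged to its downstream start site. G or C made up 68% to 72% of the windows with a match, except for CLDN18 with 49.3%. It was 35.7% to 71.3% of the members' windows without a match, and the median over all windows was 58.7%. Below, 30 bases around the match are printed in the direction of transcription for the members with the largest excess in SW1990 cells and, for comparison, for OCLN, whose level was similar in both lines. Capitals mark CAGGTG or its reverse complement CACCTG and pieces of these at an edge, and positions count from the start site as 0.
CLDN7 at -174 (chr17:7262635-7262664, minus strand): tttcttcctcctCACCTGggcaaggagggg
CLDN7 at -135 (chr17:7262596-7262625, minus strand): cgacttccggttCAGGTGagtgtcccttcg
CLDN7 at -20 (chr17:7262481-7262510, minus strand, with the match at -9): cctacatatactCAGGTGcgcccCACCTGt
CLDN7 at 5 (chr17:7262456-7262485, minus strand): CCTGtccgcccgCACCTGctggctcacctc
CLDN3 at 36 (chr7:73770221-73770250, minus strand): cccacaaagccacaggCAGGTGcaggcgca
TJP3 at -7 (chr19:3721718-3721747, plus strand): gaggaagaggggCAGGTGcagccgggagct
OCLN at -33 (chr5:69492502-69492531, plus strand): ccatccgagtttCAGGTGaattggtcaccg
OCLN at -133 of its second start site (chr5:69492645-69492674, plus strand): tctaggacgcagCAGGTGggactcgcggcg
OCLN at 35 of its second start site (chr5:69492810-69492839, plus strand): cggtcggtgcggcgtCAGGTGcgcccgcca
The grainyhead-like motif AACNNGTT and the TATA box TATAAA, searched on both strands, were in 3.52% and 11.5% of all windows and in none of the members' windows. A match of letters is a description, and binding was not measured here.

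The label of both lines as epithelial cancer cells was first set against marker genes. The keratins of simple epithelium were abundant in every library. KRT8 had an FPKM (fragments scaled to transcript length and library size) of 1352 and 1888 in the unirradiated and irradiated SW1990 libraries, and of 786 and 851 in those of PANC-1. The other markers split the lines. CDH1, which encodes E-cadherin, had an FPKM of 140 and 239 in SW1990 and of 0.673 and 1.21 in PANC-1. EPCAM, an epithelial adhesion molecule, had 217 and 218 against 2.28 and 2.81. VIM, which encodes the mesenchymal filament vimentin, had counts of 17 and 0 in SW1990 and of 82406 and 75166 in PANC-1. PANC-1 cells carried keratins with little E-cadherin and much vimentin RNA.

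On a scale per transcript length, the members covered a wide range within SW1990 cells. In the unirradiated library TJP1 stood highest with an FPKM of 73.2, followed by CLDN7 with 55.9, OCLN with 30.7, TJP3 with 27.8 and CLDN3 with 21.7. CLDN4 with 11.3, CLDN12 with 9.78 and CLDN1 with 4.79 were lower. Among the 14873 genes that reached an FPKM of 1 in that library, TJP1 lay at the percentile 94.9 and CLDN1 at 33.5. In unirradiated PANC-1 cells the order was different. TJP1 with 37.5, OCLN with 34.1 and CLDN1 with 29.01 were highest, CLDN12 with 9.65 and CLDN7 with 7.70 followed, and CLDN4 with 0.879, CLDN3 with 0.474 and TJP3 with 0.0619 were under 1. CLDN18 was at 0 counts in all libraries except irradiated SW1990 cells, where 2 counts were found. These are under the floor of 3 counts, so CLDN18 RNA was not detectable at this depth and no fold change is given.

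**Figure D1:**
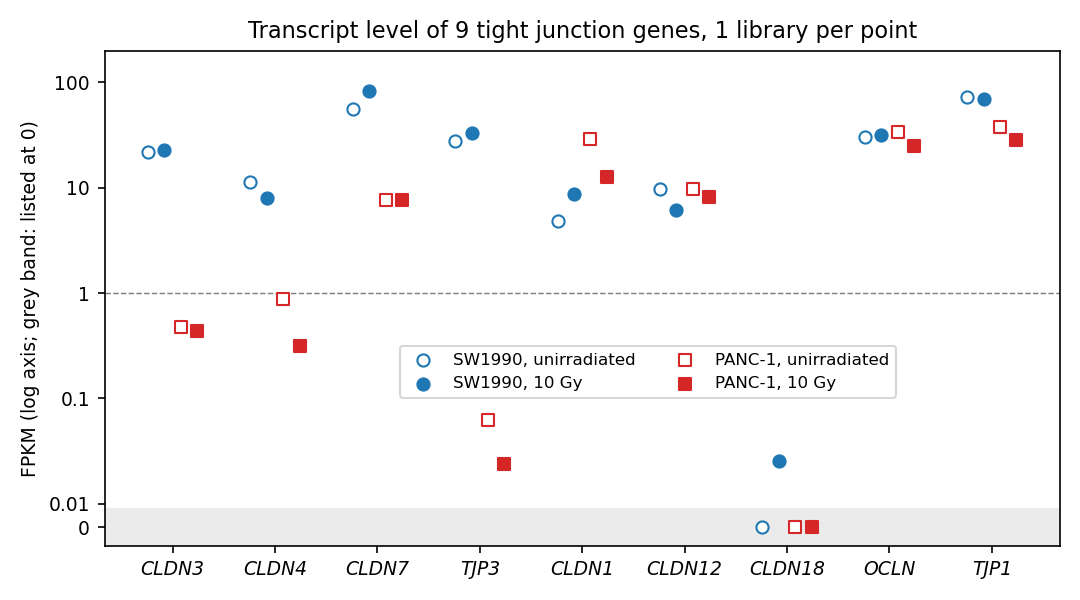
FPKM of the 9 tight junction genes on a log axis, with 1 library per point, SW1990 as circles and PANC-1 as squares, open without radiation and filled after 10 Gy. CLDN3, CLDN4 and TJP3 are over 1 (dashed line) in SW1990 and under 1 in PANC-1, OCLN lies between 25.1 and 34.1 in all libraries, and CLDN18 is listed at 0 in 3 libraries (grey band).

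Between the lines, CLDN3, CLDN7 and TJP1 were higher in SW1990 cells and no member was higher in PANC-1 cells past the threshold, an adjusted p under 0.05 in edgeR's quasi-likelihood test with Benjamini-Hochberg adjustment, fitted on all 4 libraries with treatment as a covariate. Of the 9 members, 8 passed the filter on low counts and CLDN18 did not. TJP3 and CLDN4 had fewer than 10 counts in 2 and 1 of the PANC-1 libraries. TJP3 passed through its SW1990 libraries alone, so it had to differ, and its higher value in SW1990 is given as a description. CLDN4 had 96 counts in unirradiated PANC-1 cells and did not have to differ. It also passed the threshold as higher in SW1990, but in only 4 of 9 alternatives. Of all 18244 genes tested, 44.4% passed the threshold, 21.6% as higher in SW1990 and 22.8% as higher in PANC-1. With 2 libraries per line, treatment as a covariate and 1 residual degree of freedom, no spread between replicates was measured. The spread behind these values is how far the change with radiation differed between the lines, combined in part with that of other genes.

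TJP3 had the largest fitted difference among the members. Its counts were 1643 and 1886 in SW1990 and 6 and 2 in PANC-1. Both PANC-1 libraries were near the floor, and the lines did not overlap. The fitted log2 fold change, SW1990 over PANC-1, was 8.84 ± 0.37 (SE, n = 2 libraries per line), given with no test since the gene entered the fit through SW1990 alone. Taken library by library, the log2 ratio of counts was 8.26 (95% counting interval 7.13 to 9.70) without radiation and 9.93 (8.07 to 12.98) after it. ZO-3 is known mainly from epithelia, whereas ZO-1 is also found in other cells.

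TJP1, the most abundant member in 3 of the 4 libraries by FPKM, differed less. Its counts were 8834 and 7610 in SW1990 and 5838 and 3504 in PANC-1, and its FPKM 73.2 and 69.6 against 37.5 and 28.7. The lines did not overlap, with a log2 fold change of 0.96 ± 0.16 (SE, n = 2 per line; edgeR adjusted p = 0.0085). Fits that leave out 1 library also leave out the treatment covariate, which on all 4 libraries gave 0.93 (adjusted p = 0.019). In this form the call was lost without the unirradiated SW1990 library (0.83, adjusted p = 0.064) and without the irradiated PANC-1 library (0.70, adjusted p = 0.053), and 7 of 9 alternatives kept it, with adjusted p between 7.16e-09 and 0.0635.

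CLDN3 followed TJP3 in size. It had 608 and 654 counts in SW1990 cells against 18 and 14 in PANC-1 cells, and an FPKM of 21.7 and 22.9 against 0.474 and 0.439. The log2 fold change was 5.40 ± 0.29 (SE, n = 2 per line; edgeR adjusted p = 0.00038), a 42.1-fold excess. The 2 libraries of each line lay close together and the lines far apart.

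CLDN7 was found in both lines at different levels. SW1990 cells had 1502 and 2316 counts and an FPKM of 55.9 and 82.5, and PANC-1 cells had 215 and 217 counts and an FPKM of 7.70 and 7.68. The log2 fold change was 3.21 ± 0.21 (SE, n = 2 per line; edgeR adjusted p = 0.00052), a 9.3-fold excess. EPCAM, the partner of claudin-7 in the lateral membrane, had a log2 fold change of 6.18 between the same libraries. The exons of CLDN7 share 269 bases with AC003688.1 on the same strand, which had between 7 and 15 counts, and 38 bases with ELP5 on the other strand.

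CLDN4, the neighbour of CLDN3, had 301 and 170 counts in SW1990 and 96 and 9 in PANC-1. All SW1990 values were higher, but the PANC-1 libraries stood far apart. The log2 fold change of 2.80 ± 0.63 (SE, n = 2 per line; edgeR adjusted p = 0.020) had the largest error of the 8 members fitted. It passed the threshold in this fit but not without the filter on low counts (edgeR adjusted p = 0.054). Without the treatment covariate it was 2.31 and did not pass (edgeR adjusted p = 0.084). In that form it was between 1.501 without the irradiated and 4.74 without the unirradiated PANC-1 library.

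CLDN1 and CLDN12 were the members with higher fitted values in PANC-1, neither past the threshold. The counts of CLDN1 were 333 and 634 in SW1990 and 2724 and 1010 in PANC-1. Every PANC-1 value was above every SW1990 value, yet the distance between the lines depended on the treatment, with a log2 ratio, SW1990 over PANC-1, of -2.87 (95% counting interval -3.04 to -2.71) without radiation and -0.62 (-0.77 to -0.48) after 10 Gy. The log2 fold change over both treatments was -1.74 ± 0.56 (SE, n = 2 per line) and did not pass the threshold (edgeR adjusted p = 0.054). It passed in 5 of 9 alternatives, with adjusted p between 0.0124 and 0.166. It already passed when the treatment covariate alone was left out (-1.81, adjusted p = 0.031). Of the fits that in addition leave out 1 library, it passed without irradiated SW1990 cells (-2.37, adjusted p = 0.024) and without irradiated PANC-1 cells (-2.29, adjusted p = 0.035), and not without unirradiated SW1990 (-1.42, adjusted p = 0.093) or unirradiated PANC-1 cells (-1.012, adjusted p = 0.17).

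OCLN and CLDN12 were not distinguished between the lines. OCLN had 1916 and 2241 counts in SW1990 and 2506 and 1530 in PANC-1, so that the lines overlapped, and its log2 fold change was 0.18 ± 0.23 (SE, n = 2 per line; edgeR adjusted p = 0.56). Without the treatment covariate it was 0.16, and -0.06 when the irradiated PANC-1 library was left out as well. Its FPKM was 30.7 and 31.5 in SW1990 and 34.1 and 25.1 in PANC-1, in a line with much and a line with little E-cadherin RNA. CLDN12 had 652 and 204 counts in SW1990 and 764 and 499 in PANC-1, with a log2 fold change of -0.64 ± 0.32 (SE, n = 2 per line; edgeR adjusted p = 0.16). Without the treatment covariate it was -0.45 (adjusted p = 0.52). In that form it was -1.504 without the unirradiated SW1990 library (adjusted p = 0.020) and 0.15 without the irradiated one (adjusted p = 0.73), with adjusted p between 0.0198 and 0.883 over 9 alternatives.

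The mixture of claudins was described on the FPKM scale over 24 claudins, the 6 members and 18 others. In unirradiated SW1990 cells their summed FPKM was 182, of which CLDN2 took 37.6%, CLDN7 30.8% and CLDN3 11.9%. After 10 Gy the sum was 184, with 24.6% for CLDN2, 44.8% for CLDN7 and 12.4% for CLDN3. CLDN2 and CLDN7 stood in opposite order in the 2 libraries, and CLDN2 had 4694 counts without and 3054 with radiation. In PANC-1 cells the sum was 53.3 without radiation, with 54.4% for CLDN1, 18.1% for CLDN12 and 14.4% for CLDN7. It was 36.4 after 10 Gy, with 34.6% for CLDN1, 22.3% for CLDN12, 21.1% for CLDN7 and 13.4% for CLDN15. CLDN1 took 2.63% and 4.73% in SW1990 cells. CLDN7 and the pore-forming CLDN2 led in SW1990 and CLDN1 in PANC-1, where after radiation CLDN12 and CLDN7 together took more than CLDN1.

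In SW1990 cells, radiation came with 1 call among the members, CLDN12 lower. The reads of the 2 libraries of a line were compared with edgeR's binomTest, and calls needed more than a 2-fold change with q under 0.001. The test compares 2 libraries and not the conditions. Of 15731 genes that reached an FPKM of 1 in either library, 4.2% were called, 2.26% as higher and 1.95% as lower. Of the members 8 were tested, and their median log2 fold change was 0.15 (5 above 0, 3 below) against -0.01 for all genes tested. A share of 1 in 8 members rests on 1 gene and is not read against the background.

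CLDN12 had 652 counts without and 204 with radiation, a log2 fold change of -1.68 (95% counting interval -1.92 to -1.45). Its FPKM was 9.78 and 6.11, a log2 fold change of -0.68, at which it was not called. Nor was it called with an assumed coefficient of variation of 0.2 between replicates, at which 99 genes of this line were. The length in bases at which the count, scaled to the library total, gives the FPKM was 3735 in the unirradiated and 1825 in the irradiated library. This ratio is not a measured transcript length, as for CLDN3, with 1 transcript of 1274 bases, it was 1558 to 1628 in the 4 libraries. Of 15056 genes compared in this line, 0.857% had a gap between the count and FPKM fold changes at least as large. The exons of CLDN12 share 347 bases with GTPBP10 on the same strand, whose counts were 509 and 236, and the part of shared reads in the result was not tested. The remaining members of SW1990 cells did not reach the 2-fold limit. CLDN1 had 333 and 634 counts, a log2 fold change of 0.92 (0.73 to 1.12), and CLDN7 1502 and 2316 counts, a log2 fold change of 0.62 (0.52 to 0.71). CLDN4 had a log2 fold change of -0.83 (-1.11 to -0.55). OCLN with 0.22, TJP3 with 0.19, CLDN3 with 0.10 and TJP1 with -0.22 were nearer to 0. By counts, the scaffold genes TJP1 and TJP3 were thus within 1.17-fold of their unirradiated level. From FPKM, TJP3 had a log2 fold change of 0.27.

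In PANC-1 cells the called member was CLDN1, which was lower. It had 2724 counts without and 1010 with radiation, and an FPKM of 29.01 and 12.6. The log2 fold change was -1.30 (95% counting interval -1.41 to -1.20) from counts and -1.21 from FPKM, so that the irradiated library held 2.46-fold less. Of 15159 genes tested in this line, 4.77% were called, 2.42% as higher and 2.35% as lower. The split of 367 higher and 356 lower calls became 462 and 282 with library totals in place of the scaling used, and 414 and 268 with fold changes from FPKM, and CLDN1 was called lower in each. With an assumed coefficient of variation of 0.2 between replicates, 103 genes were called and CLDN1 was not among them. Of the members 5 were tested, with a median log2 fold change of -0.58 against -0.02 for all genes tested.

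The other tested members of PANC-1 cells were not called. OCLN had 2506 and 1530 counts, a log2 fold change of -0.58 (-0.67 to -0.49), and TJP1 5838 and 3504 counts, a log2 fold change of -0.61 (-0.67 to -0.55). CLDN12 had 764 and 499 counts, a log2 fold change of -0.48 (-0.65 to -0.32). CLDN7 had 215 and 217 counts, with 0.14 (-0.14 to 0.42) from counts and -0.0043 from FPKM, so no direction is read from it. CLDN3, CLDN4 and TJP3 were not tested, since neither library reached an FPKM of 1. CLDN4 had 96 and 9 counts, a log2 fold change of -3.28 (-4.46 to -2.30) from counts and of -1.47 from FPKM. The same ratio of count to FPKM was 4683 bases in the unirradiated and 1417 in the irradiated library, and 0.123% of 14609 genes had a gap between the fold changes at least as large. The source of this gap was not tested.

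When the radiation effect was fitted over both lines, with line as a covariate, no member and 0 of 18244 genes passed an adjusted p under 0.05 in edgeR's quasi-likelihood test. At an unadjusted p under 0.05 in this test there were 870 of the 18244 genes, no more than such a limit would pass without any effect. DESeq2 called 312 genes and limma-trend on log2(FPKM + 1) called 1.

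The rest of the junction was described by 57 further genes in 3 lists, 18 claudins, 14 other membrane proteins and 25 plaque proteins. With radiation, 33 of them were tested in each line. Of all genes tested, 4.2% were called in SW1990 (2.26% higher, 1.95% lower) and 4.77% in PANC-1 cells (2.42% higher, 2.35% lower). The few calls below are a description beside these shares. In SW1990 cells 1 was called higher and 0 lower, with a median log2 fold change of 0.00. The call was CLDN9, a claudin of the inner ear, with 44 and 105 counts and an FPKM of 0.958 and 2.28 (log2 fold change 1.25, 0.73 to 1.79), so it was tested through the irradiated library alone, where it is high. In PANC-1 cells 2 were called higher and 1 lower, with a median of 0.01. PARD6G, a subunit of the PAR polarity complex, had 25 and 88 counts (1.95, 1.29 to 2.65) and an FPKM of 0.313 and 1.014, so that, like CLDN9, it was tested through the irradiated library alone. MICALL2, which carries occludin back to the membrane with RAB13, had 666 and 1252 counts (1.04, 0.90 to 1.18). ARHGEF2, an activator of RhoA held at the junction, had 6670 and 2854 counts (-1.09, -1.16 to -1.03). In SW1990 cells ARHGEF2 had 876 and 1189 counts, a log2 fold change of 0.43 (0.31 to 0.56).

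Between the lines, 41 of the 57 genes were tested, of which 16 were higher in SW1990 and 9 higher in PANC-1. The median log2 fold change, SW1990 over PANC-1, was 0.36 against 1.88 for the members tested and -0.01 for all genes. Both lists include genes that passed the filter through 1 line, such as TJP3 among the members, so no difference is read from these medians. Of the 11 membrane proteins tested beside the claudins, 8 were higher in SW1990 and 3 in PANC-1, and of 25 plaque proteins 5 and 5, where 21.6% and 22.8% of all genes tested were. These counts are a description, since 6 of the 11 and 3 of the 25 had fewer than 10 counts in a library of 1 line, passed the filter through the other line and had to differ. Genes at 0 in 1 line made the largest differences and are given as bounds against 3 counts per library. CLDN2, which forms pores for sodium, had 4694 and 3054 counts in SW1990 and 0 in PANC-1, at least 1053-fold higher. MARVELD3, a relative of occludin, had 742 and 715 counts against 0, at least 246-fold higher, and CRB3, an apical polarity protein, 424 and 497 against 0, at least 144-fold higher. The reverse held for MPDZ, a scaffold with many PDZ domains, with 0 counts in SW1990 and 1380 and 1030 in PANC-1, at least 332-fold higher there, and for JAM3, an adhesion molecule, with 0 against 434 and 556, at least 128-fold higher. AMOTL1, an angiomotin, had 0 and 4 counts in SW1990 and 1650 and 1680 in PANC-1. Exons of MARVELD3 share 1068 bases with PHLPP2 and those of JAM3 465 bases with NCAPD3 on the other strand, and the strand setting of the counting is not given in the sources used here.

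The genes nearest to TJP3 in their profile over the 4 libraries were ERN2, KRT20 and COCH, with a Euclidean distance of centred log2 CPM of 0.294, 0.435 and 0.613 among 9915 genes. ERN2, an endoplasmic reticulum stress sensor of mucus-secreting cells, had 632 and 765 counts in SW1990 and 1 and 0 in PANC-1. KRT20, a keratin of gut epithelium, had 742 and 1282 against 2 and 0. With 4 libraries of 2 lines, such a distance mainly records a gene seen in SW1990 cells and near 0 in PANC-1 cells.

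Other epithelial genes differed between the lines in the same samples. Of 16 adherens junction and epithelial genes, 13 were higher in SW1990 and 2 in PANC-1, but 6 of the 16 had fewer than 10 counts in a PANC-1 library. KRT18 had an FPKM of 944 and 1062 in SW1990 cells against 468 and 539, and KRT19, which did not pass the threshold, 224 and 306 against 146 and 241. Of 8 repressors and mesenchymal genes, 6 were tested and were higher in PANC-1, and 4 of the 6 had fewer than 10 counts in an SW1990 library. These genes passed the filter through the line where they are high, so the counts are a description, beside 21.6% and 22.8% of all genes tested. ZEB1, a repressor that binds the E-box shown above, had 14 and 66 counts in SW1990 and 1394 and 1084 in PANC-1, a log2 fold change of -5.00 ± 0.61 (SE, n = 2 per line; edgeR adjusted p = 0.0029). ZEB2, its relative, had 2 and 0 counts against 463 and 362, and SNAI1, a repressor of the snail family, an FPKM of 1.47 and 1.83 against 4.51 and 5.75. In SW1990 cells ZEB1 was also called higher with radiation (log2 fold change 2.23, 1.38 to 3.18), at an FPKM of 0.314 and 1.33, so it was tested through the irradiated library alone. Their part in the levels of the members was not tested. Gastric-type genes, listed beside CLDN18, were low, with 4 of the 5 tested higher in SW1990, again with fewer than 10 counts in a library of 1 line for 4 of the 5. In SW1990 cells MUC6 and MUC5AC, both gastric mucins, had an FPKM of 3.71 and 2.74 and of 2.82 and 2.85, TFF3, a mucosal peptide, 2.01 and 4.24, and CTSE, an aspartic protease, with 0.289 and 2.25.

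Of the markers of other cell types, COL1A1 and KDR in PANC-1 had the highest levels. COL1A1, a fibrillar collagen chain, had 965 and 1315 counts there and an FPKM of 8.44 and 11.01. This lay between CLDN7 and CLDN12 without radiation and above both after it. KDR, a receptor of vascular growth factors, had 999 and 746 counts and an FPKM of 6.37 and 5.37. Their part in the levels of the members was not tested. Of 6 fibroblast markers the summed FPKM was 1.40 and 2.85 in SW1990 and 9.32 and 11.6 in PANC-1, most of it from COL1A1, with COL1A2, DCN and PDGFRA at 0. Of 5 endothelial markers it was 0.155 and 0.309 in SW1990 and 6.38 and 5.44 in PANC-1, nearly all from KDR. Of 5 immune markers it was 0.923 and 1.33 in SW1990 and 0.592 and 1.09 in PANC-1, with CD14 highest and CD3E at 0. Since these are bulk libraries, fewer cells with an RNA and less RNA per cell cannot be told apart for any gene.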

How the data were processed

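The authors deposited 1 table with a read count and an FPKM per gene for each of the 4 libraries. Per the labels, an mRNA library kit was used on RNA described as rRNA depleted, and the submitters' processing notes list CASAVA 1.8, FastQC 0.11.2, Trimmomatic 0.36, HISAT2 2.0, StringTie 1.3.3b, DESeq2 1.12.4 and GRCh38. The deposited FPKM values are scaled to transcript length and library size, and the deposited counts are not normalized. The counting tool, annotation release and strand setting are not given in the sources used here. Rows without a gene identifier (1089, between 0.453% and 0.635% of counts) were left out.

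Within a line, 2 libraries were compared with edgeR 4.0.16 (R 4.3.3) binomTest on TMM-scaled library sizes, for genes that reached an FPKM of 1 in either library, with a CPM of 0 set to 0.01. Lines were compared with edgeR's glmQLFTest after filterByExpr. Counting intervals of a ratio of 2 libraries are exact Clopper-Pearson at 95%. Those of a difference between log2 fold changes use a normal approximation, also at 95%, with an error from the counts. DESeq2 1.42.0, limma 3.58.1, other scalings, filters, fold limits, an assumed coefficient of variation, FPKM, added constants and leaving out each library were alternatives. The libraries of a line carry no replicate number, and nothing states separate cultures. Steps were tested on simulated data.

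The members, gene lists and tests were chosen with earlier results of these data known. Genes named are the 9 members, other tight junction genes called with radiation, the 6 with the largest line difference past the threshold and an FPKM of at least 5, up to 4 of each context list by level with CDH1, EPCAM, ZEB1 and VIM, and the 3 nearest profiles to TJP3. Overlapping neighbours were added. Values of single genes that are withheld are not reported here. Protein sequences were not used here.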

Additional observations from a re-analysis of the deposited data

Results flagged for a closer look

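CLDN1 moved in opposite directions with radiation in the 2 lines, with counting intervals clear of 0 in each. For SW1990 its log2 fold change was 0.92 and for PANC-1 -1.30, a difference of 2.22 (95% counting interval 2.01 to 2.44). OCLN differed in the same way, with 0.22 against -0.58 and a difference of 0.80 (0.67 to 0.93). From FPKM the change of OCLN was 0.04 in SW1990 against -0.44, still of opposite sign but near 0 in SW1990. ARHGEF2 did so with 0.43 against -1.09 and a difference of 1.53 (1.39 to 1.67). With 1 library per line and treatment, the difference itself was not tested.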

How the results depend on the processing

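Over 9 alternatives each, CLDN3 and CLDN7 remained higher in SW1990 past the threshold, with log2 fold changes of 4.0 to 5.53 and 2.89 to 3.53. TJP3, which entered the fit through SW1990 alone, had 4.92 to 9.75. Leaving out 1 library, together with the treatment covariate, gave -1.504 to 0.15 for CLDN12, -0.0638 to 0.493 for OCLN and 5502 to 6253 genes differing between the lines, against -0.45, 0.16 and 8383 without the covariate on all 4 libraries and 8106 with it. CLDN7 in PANC-1 cells had -0.0043 from FPKM, with or without 0.01 added, and -0.0038 with 1 added. With a fold limit of 1.5 on counts, 1472 genes were called in SW1990 and 1794 in PANC-1 cells. CLDN1, CLDN4 and CLDN7 in SW1990 and TJP1 in PANC-1 cells passed. From FPKM, CLDN1 in SW1990 had a log2 fold change of 0.86, past this limit. CLDN4 with -0.49 and CLDN7 with 0.56 in SW1990 and TJP1 with -0.39 in PANC-1 stayed under it. When a spread between replicates of 0.2 (biological coefficient of variation) was assumed, 99 and 103 genes were called and neither CLDN12 nor CLDN1 passed. With 1 added to every CPM, 480 genes were called in PANC-1 cells. Without the FPKM filter, CLDN4 was called lower in PANC-1 cells. CLDN1 in PANC-1 cells ranged from -1.33 to -1.14 and CLDN12 in SW1990 cells from -1.71 to -0.60. For radiation over both lines, DESeq2 called 312 genes and limma-trend 1, against 0. Low counts limit TJP3, CLDN3 and CLDN4 in PANC-1 cells and CLDN18 in all libraries.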
